A study of Mus musculus with 14 samples.

Results

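Sorted liver leukocytes were set against whole liver tissue across all genes. CD45 is a phosphatase on the surface of white blood cells, and every library made from cells sorted for it was taken, which gave 12 of the 14 libraries of the series. Bulk liver gave the other 2 libraries. The mice were wild type and untreated in both groups. Sorted cells came from needle biopsies by flow cytometry, and 3 libraries each were made from 2500, 5000, 10000 and 20000 of them. The labels give no strain, age or sex. They also leave unsaid whether the libraries of a group stem from different mice, so the spread behind each p-value is that between libraries and may be technical. The sorted libraries also differ from bulk liver in tissue dissociation and sorting, and the difference in cell content and the difference in handling cannot be told apart.

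Whole liver RNA comes mostly from hepatocytes, large cells that make plasma proteins and carry out much of the body's metabolism of sugars, amino acids, lipids and drugs. Leukocytes are small, motile cells that crawl on an actin skeleton and answer signals through kinase and lipid messengers. Many enzymes and structural proteins exist in several forms encoded by separate genes, and the liver form and the blood-cell form of one enzyme often differ. The comparison therefore asks which gene classes set the sorted cells apart from whole liver beyond cell-type markers, and which directions depend on how libraries are scaled.

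Ptprc, which encodes CD45, had a lowest, median and highest value of 2334, 2556 and 2651 CPM (the gene's share of the library's total count, in parts per 1e6) in the sorted libraries, against 8.55 and 12.2 CPM in bulk liver. Alb, which encodes albumin, had 36.5, 50.2 and 58.8 CPM in sorted libraries, against 20707 and 21256 CPM in bulk liver. No sorted library overlapped a bulk library for either gene. The mean level of Alb in sorted cells was 0.232% of its bulk level, and that of Ptprc in bulk liver was 0.410% of its sorted level. All 10 genes of a leukocyte marker list were higher and all 10 of a hepatocyte list were lower in sorted cells. Markers of endothelium summed to between 38.7 and 84.8 CPM in sorted libraries, against 143 and 149 CPM in bulk liver, and markers of stellate cells to between 9.15 and 14.9 CPM, against 155 and 170 CPM. Both lists had 5 of 5 genes lower, and none of their genes was at 0 in all sorted libraries. Cholangiocyte markers summed to 9.75 to 15.4 CPM in sorted libraries, against 128 and 140 CPM, with 4 of 5 lower under TMM, 3 lower and 1 higher under library totals, and 1 at 0 in all sorted libraries. Erythroid markers summed to 3.02 to 38.7 CPM, against 198 and 244 CPM, with all 3 tested lower. Platelet markers summed to 5.10 to 15.6 CPM, against 2.37 and 2.61 CPM, with 2 of 4 tested higher under TMM and 3 under library totals. The part of these cells in the results was not tested. Total counts ranged from 6723357 to 14496314 per library, and 50% of the counts were held by between 1007 and 1074 genes in sorted libraries and by 175 and 176 genes in bulk liver. In bulk liver, fewer cells of a type and less RNA per cell cannot be told apart, which holds for every level given here.

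The direction of many genes depended on the scaling. TMM scaling (trimmed mean of M values) assumes that most genes left after trimming the extremes do not differ, and gave factors of 1.12 to 1.15 for sorted libraries and 0.492 and 0.486 for bulk liver. Under TMM, 6806 of 16294 genes tested were higher in sorted cells (41.8%) and 6273 were lower (38.5%). With library totals alone, 10737 were higher (65.9%) and 3654 lower (22.4%), so that the higher calls made up 74.6% of all calls under library totals and 52.0% under TMM. The median log2 fold change of all genes tested was 1.37 under library totals and 0.17 under TMM. All fold changes below are log2, sorted cells over bulk liver, and adjusted p-values come from edgeR's quasi-likelihood test with Benjamini-Hochberg adjustment over all genes tested. The fit gave each cell number its own mean, so each SE of a fold change leaves out the spread between cell numbers.

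The 2 scalings split the genes into classes. Higher under both were 6806 genes, which held 65.1% of sorted counts and 7.91% of bulk counts. Lower under both were 3654 genes, which held 10.3% of sorted counts and 76.2% of bulk counts. Every gene higher under TMM was also higher under library totals, and every gene lower under library totals was also lower under TMM. A call under both scalings is therefore not agreement of independent tests. Another class of 1345 genes (8.25%) passed in opposite directions, lower under TMM and higher under library totals, with medians of -0.59 and 0.62. Their direction is a matter of the yardstick, and they held 11.7% of sorted counts and 7.61% of bulk counts. Another 2586 genes were higher under library totals only, 1274 were lower under TMM only, and 629 passed under neither scaling. Without either bulk library the class with opposite directions held 790 and 758 genes.

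**Figure D1:**
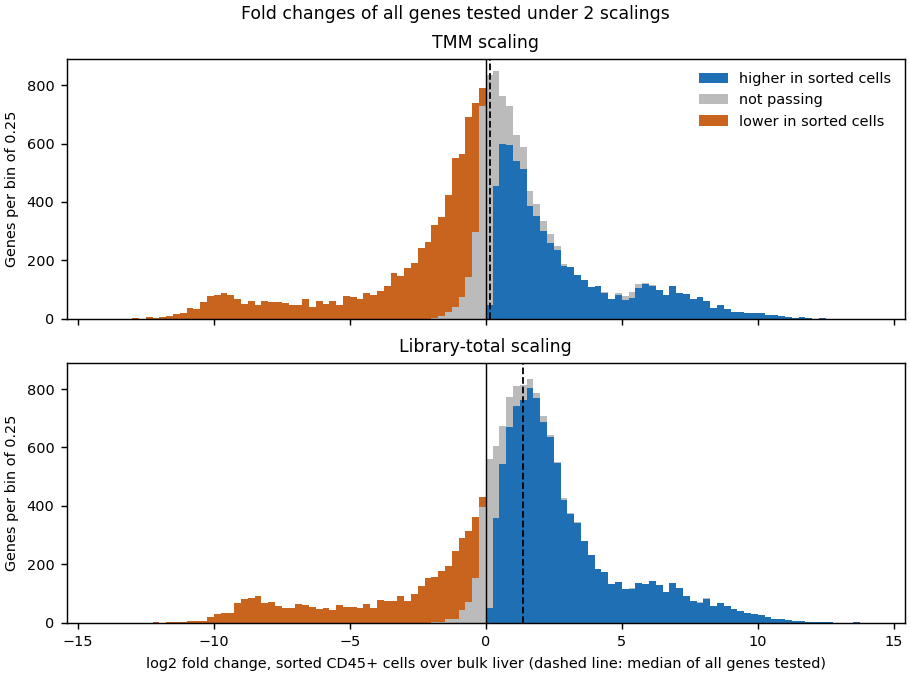
Number of genes (y axis, per bin of 0.25) by log2 fold change of sorted CD45+ cells over bulk liver (x axis) under TMM scaling (top) and library totals (bottom), for 16294 genes. Colours give higher, not passing and lower calls, and the dashed lines mark the medians of 0.17 and 1.37: the whole distribution moves right under library totals.

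Most genes that build and steer the actin skeleton were higher in sorted cells under either scaling. Of 26 genes for actin assembly and branching, 25 were higher under TMM and 26 under library totals, with a median of 3.59 under TMM, and they took 3.23 ± 0.152% of counts in sorted libraries (SD, n = 12), against 0.235 ± 0.00176% in bulk liver (SD, n = 2). Coro1a, which encodes the leukocyte actin-binding protein coronin 1A, had 2358, 2659 and 2818 CPM (lowest, median, highest) in sorted libraries, against 6.57 and 6.22 CPM in bulk liver. Its fold change was 7.48 under TMM (SE 0.11) and 8.68 under library totals (SE 0.10). Fmnl1, a formin that extends actin filaments, differed by 6.82 under TMM. Tmsb4x, whose product binds actin monomers, had 6681, 7688 and 10205 CPM in sorted libraries, against 202 and 211 CPM in bulk liver, and its fold change was 4.06 under TMM. Among the subunits of the branching complex Arp2/3, Arpc1b, Actr3, Arpc5, Arpc2 and Arpc4 were higher by 3.05, 2.74, 1.85, 1.44 and 1.25 under TMM. Arpc1a, a subunit gene outside the list of 26, passed in opposite directions, at -0.66 under TMM and 0.54 under library totals. Actr2, another subunit, had 0.06 under TMM (SE 0.24) and was higher by 1.26 under library totals. Arpc3 stood at 0.37 under TMM, a call lost without the second bulk library (0.34), with DESeq2 size factors (0.25), with limma-voom (0.37) and with all sorted libraries as 1 group (0.39). For Actr2 the sorted libraries ranged from 150 to 494 CPM, against 113 and 105 CPM in bulk liver.

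Switches upstream of actin also differed. Rhoh, a GTPase of blood cells, had 246, 266 and 282 CPM in sorted libraries, against 0.53 and 0.37 CPM in bulk liver. Dock2, an exchange factor that activates Rac, had 820, 934 and 1032 CPM, against 1.71 and 2.86 CPM. Both lay far above bulk liver in each sorted library, with fold changes of 7.97 (SE 0.15) and 7.44 (SE 0.18) under TMM. Dock1, a relative of Dock2, and Vav2, a relative of Vav1, behaved otherwise. They passed in opposite directions, at -0.59 and -0.39 under TMM and 0.61 and 0.82 under library totals. These calls were weak: without the first and the second bulk library, Dock1 stood at -0.41 and -0.64 and Vav2 at -0.30 and -0.35 under TMM, and none of these passed. Vav2 also did not pass without the first library of 20000 cells, at -0.32, and Dock1 did not pass without most single libraries. With upper-quartile factors Dock1 stood at -0.45 and Vav2 at -0.25, and with no low-count filter at -0.41 and -0.21, and again none passed. Under library totals Dock1 did not pass with limma-voom, at 0.57, or without either bulk library, at 0.74 and 0.49. Other skeleton genes were mixed: 7 of 11 septins and tropomyosins were higher under TMM, led by Sept6 at 6.51 and Sept1 at 5.90, and 5 of 11 tubulins were higher and 6 lower under either scaling. Of all genes tested, 41.8% were higher and 38.5% lower under TMM, and 65.9% and 22.4% under library totals. Among the tubulins Tuba1a was higher by 2.54 and Tubb2a lower, at -3.91 under TMM. These tubulin genes are close copies of one another, so their counts are uncertain.

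Most signalling lists were also clearly higher on balance. All 12 genes of the SLAM receptors and their adaptors, which tune contacts between lymphocytes, passed under both scalings. Their median was 6.86 under TMM, or 5.58 when the 2 genes with no bulk count were set at their lower bound. These were Sh2d1a, the SLAM adaptor SAP, and Sh2d1b1, at least 129-fold and 89.2-fold higher under library totals, with the floor for the bulk pair set at 3 counts in all. Of 22 genes of NF-kappaB and its regulators, 20 were higher under TMM. The 2 lower ones under TMM encode the kinase subunits Chuk and Ikbkg, at -1.41 and -0.22. Chuk was lower under library totals too, at -0.21, while Ikbkg was higher there, at 0.99. Under TMM Ikbkg did not pass without either bulk library, at -0.11 and -0.20, or without the first library of 20000 cells, at -0.18, nor with upper-quartile factors, at -0.08, or no low-count filter, at -0.04. Of 15 JAK and STAT genes 13 were higher under TMM, from Stat5b at 0.32 to Stat4 at 7.92. Cish, a suppressor of cytokine signals, passed in opposite directions, at -0.71 under TMM and 0.49 under library totals, where it did not pass without either bulk library, at 0.55 and 0.44, and Socs2 passed under library totals only. Of 26 phosphoinositide signalling genes 19 were higher and 4 lower under TMM. Prkcb, a protein kinase C, had a fold change of 6.27, and Prkcz, its atypical relative, -2.93. The list of heterotrimeric G proteins and their RGS regulators was more mixed, with 13 of 23 tested genes higher and 9 lower under TMM. For comparison, 41.8% of all genes tested were higher and 38.5% lower under TMM.

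**Figure D2:**
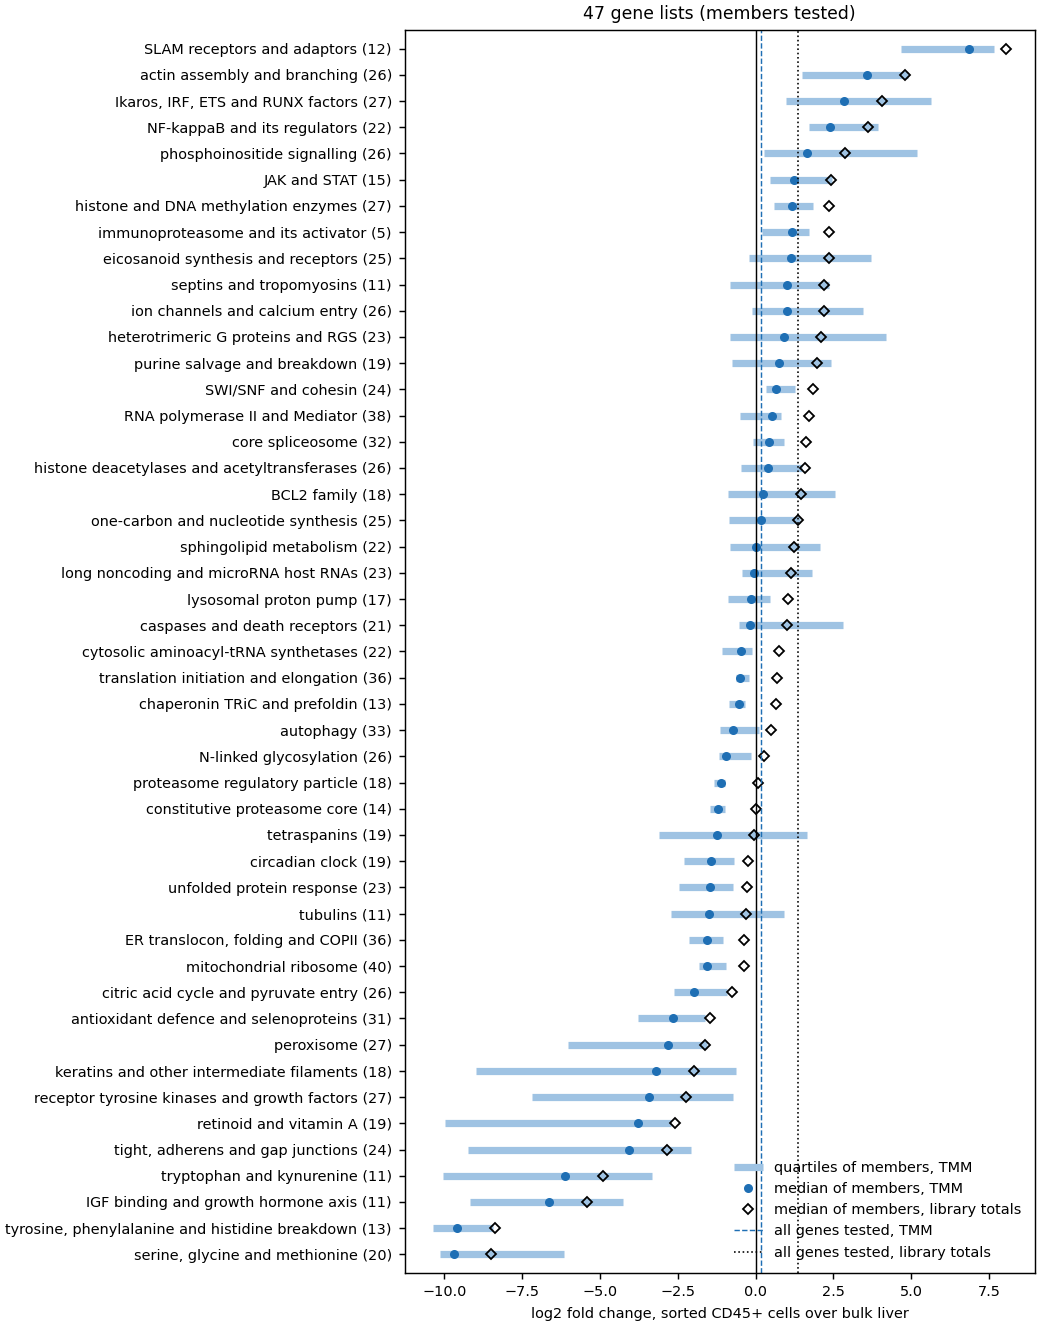
Median log2 fold change of sorted CD45+ cells over bulk liver (x axis) for 47 gene lists (y axis, members tested in brackets) under TMM (filled circles, bars are the quartiles of members) and library totals (open diamonds), with the medians of all genes as vertical lines. SLAM receptors stand highest at 6.86 under TMM, and serine, glycine and methionine breakdown lowest at -9.69. The lists for translation, the constitutive proteasome core and the proteasome regulatory particle change side with the scaling.

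Pairs of genes that do the same job in different cells give a comparison that does not depend on scaling between libraries, since the share of one form is taken within a library. For 32 sets of isozymes or isoforms, the share of the set's TPM (a level corrected for transcript length that sums to the same total in each library) taken by the form named first was computed for each library. The share was higher in sorted cells in every one of the 32 sets, and in 31 of them (96.9%) the 12 sorted libraries did not overlap the 2 bulk libraries. Among all genes tested, the CPM of the groups did not overlap in 62.8% with sorted cells above and in 21.5% with sorted cells below. The two-sided exact permutation test over the 91 arrangements of the libraries gave p = 0.022, the smallest it allows, for those 31 sets (adjusted p = 0.0227). The same exact test gave p = 0.044 for the remaining set, and 100% of the 32 sets passed an adjusted p of 0.05. Without either bulk library none of the sets passed, since the smallest p is then 0.154, while all 32 kept their direction. The forms were paired with their known tissue use in view, so the direction and the number of sets that passed are a description and not independent evidence.

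Glucose handling showed the exchange at several steps. Hk1, a hexokinase that traps glucose in most cells, was between 38.2 and 59.2 TPM in sorted libraries, against 1.80 and 0.81 TPM in bulk liver. The glucose transporters Slc2a1 and Slc2a3 took 99.4 ± 0.350% of their set's TPM in sorted libraries (SD, n = 12), against 3.27% and 5.25% in bulk liver, where Slc2a2, the liver transporter, stood at 163 and 158 TPM.

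The last steps of glycolysis followed the same pattern. Pkm, the widespread pyruvate kinase, took between 99.96% and 100% of its set in sorted libraries, against 11.3% and 11.5% in bulk liver. Its level was 367, 437 and 499 TPM (lowest, median, highest) in sorted libraries, against 6.66 and 7.03 TPM, while Pklr, the liver form, was at most 0.20 TPM, against 52.3 and 54.3 TPM. Pfkp, a phosphofructokinase, took 70.1 ± 1.35% in sorted libraries, against 12.1% and 9.42%, and Pfkfb3 and Pfkfb4, which make an activator of that enzyme, took 96.8 ± 1.38%, against 17.9% and 10.6%. In lactate dehydrogenase both groups used mainly Ldha, and the share of Ldhb was 5.66 ± 0.780% in sorted libraries, against 0.244% and 0.171% in bulk liver. The brain and muscle glycogen phosphorylases Pygb and Pygm took 39.2 ± 2.59%, against 1.60% and 1.47%. The liver form Pygl, at 63.2 ± 6.14 TPM in sorted cells, was still the larger part of its set there.

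Amino acid and lipid enzymes changed form as well. Mat2a, which makes the methyl donor S-adenosylmethionine outside the liver, took 99.4 ± 0.330% of its set in sorted libraries, against 11.2% and 9.91% in bulk liver. Arg2, the mitochondrial arginase, took 73.0 ± 12.1%, against 0.0381% and 0.0119%, and its share spread widely over sorted libraries, from 47.4% to 88.1%. That set was low in sorted cells, at 11.8 TPM in all. Among the acyl-CoA synthetases Acsl3, Acsl4 and Acsl5 took 72.5 ± 1.60%, against 34.1% and 31.9%. Each of Acsl3 and Acsl5 had a lower mean TPM in sorted cells (14.1 and 77.7) than in bulk liver (29.1 and 125), so the larger share went with a fall of Acsl1 to 42.2 TPM in sorted cells, against 336 TPM in bulk liver. The fatty acid binding proteins Fabp4 and Fabp5 took 58.6 ± 4.51%, against 2.02% and 1.86%. Neither was higher under TMM, where Fabp4 stood at -1.01 and Fabp5 at -4.88. In TPM, Fabp4 ran from 15.33 to 29.16 in sorted libraries, against 18.45 and 14.78 in bulk liver. Fabp5 ran from 13.08 to 25.44 TPM, against 185.54 and 169.78 TPM. Fabp1, the liver form, was at 28.7 ± 4.58 TPM in sorted cells (n = 12), against 9823 ± 122 TPM in bulk liver (n = 2). The sorted level of Fabp1 was, like that of Alb, far under its bulk level, and the part of carried-over liver RNA in such shares was not tested.

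**Figure D3:**
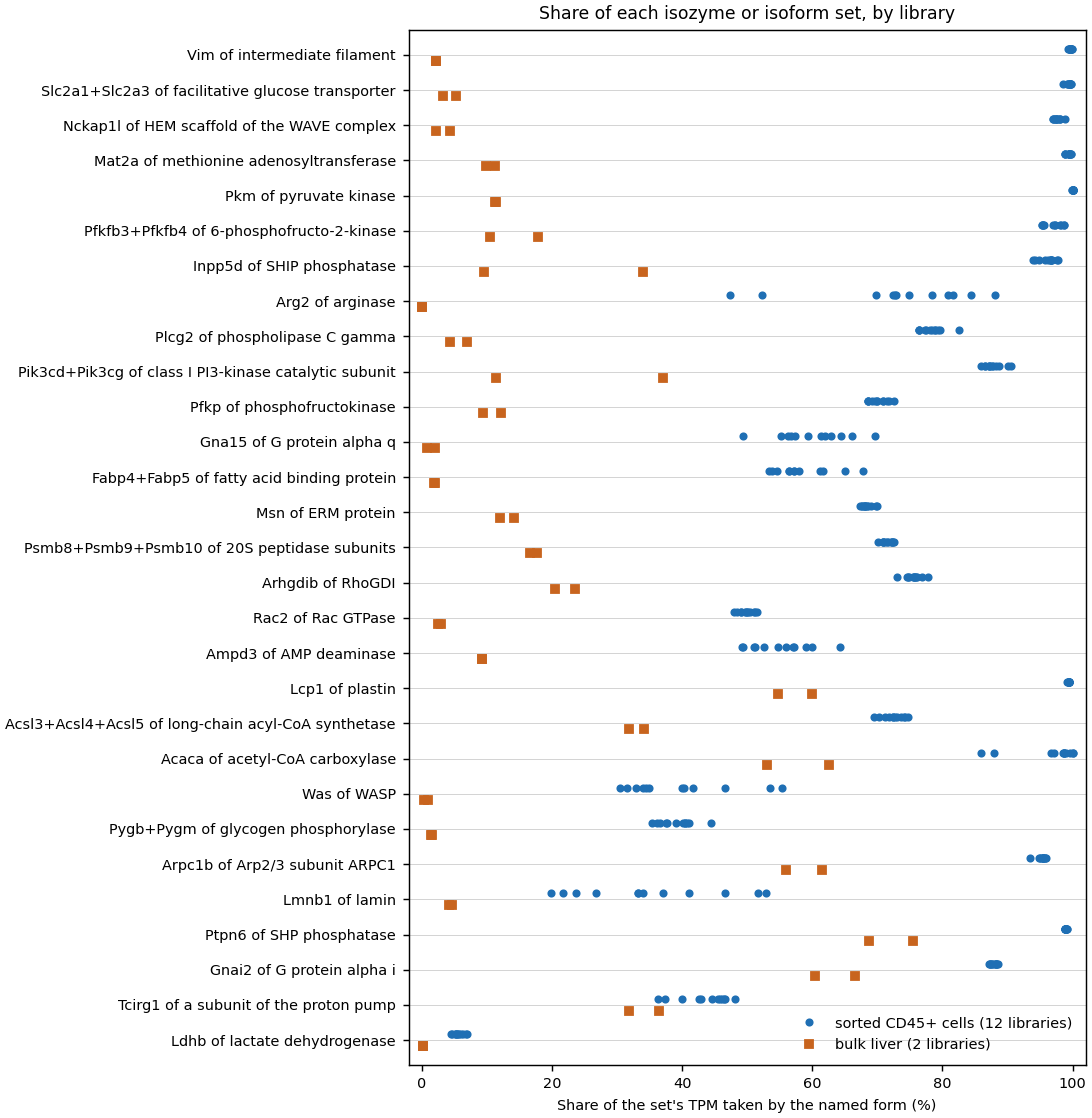
Share of a set's TPM (x axis, percent) taken by the form named on the y axis, with 1 point per library for 12 sorted CD45+ libraries (circles, upper row of each set) and 2 bulk liver libraries (squares, lower row). All 29 sets drawn lie further right in sorted cells, and among them only Tcirg1 of the proton pump overlaps.

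Structural and signalling sets behaved likewise. Vim, the intermediate filament of mesenchymal and blood cells, took 99.6 ± 0.163% of a set with the hepatocyte keratins Krt8 and Krt18 in sorted libraries, against 2.22% and 2.25% in bulk liver. Nckap1l, the blood-cell scaffold of the actin-activating WAVE complex, took 97.6 ± 0.552%, against 2.17% and 4.32%. Rac2 reached 49.9 ± 1.08%, against 2.49% and 2.93%, with Rac1 at 497 ± 37.7 TPM in sorted cells, against 108 ± 1.10 TPM in bulk liver. Inpp5d, which encodes the lipid phosphatase SHIP, took 96.1 ± 1.22%, against 9.52% and 34.1%, and the PI3-kinase subunits Pik3cd and Pik3cg took 87.8 ± 1.39%, against 11.4% and 37.1%. The bulk libraries lay far apart in these sets, which had a mean of only 6.82 and 8.86 TPM in bulk liver. In sorted libraries the widest ranges after Arg2 were those of Lmnb1 among the lamins, from 19.9% to 52.9%, and of Was against Wasl, from 30.5% to 55.3%.

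The proteasome, which degrades tagged proteins, combined both behaviours. The peptidase subunits of the immunoproteasome, Psmb8, Psmb9 and Psmb10, took 71.5 ± 0.767% of their set's TPM in sorted libraries, against 16.7% and 17.8% in bulk liver. Psmb8 had 574, 640 and 696 TPM (lowest, median, highest) in sorted libraries, against 39.0 and 37.3 TPM in bulk liver. Its constitutive counterpart Psmb5 had 145, 165 and 189 TPM, against 134 and 142 TPM, while by its counts it was lower under both scalings, at -1.52 under TMM. Under library totals it did not pass without the second bulk library, at -0.29. All 14 subunits of the constitutive core were lower under TMM, but under library totals 5 were higher and 6 lower, with a median of 0.00. In the proton pump of lysosomes, Tcirg1 took 43.6 ± 3.79% in sorted libraries, from 36.3% to 48.1%, against 36.5% and 31.9% in bulk liver, and this was the set in which the groups overlapped. The level of Atp6v0a2 in that set ran from 70.4 to 139 TPM over the sorted libraries.

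**Figure D4:**
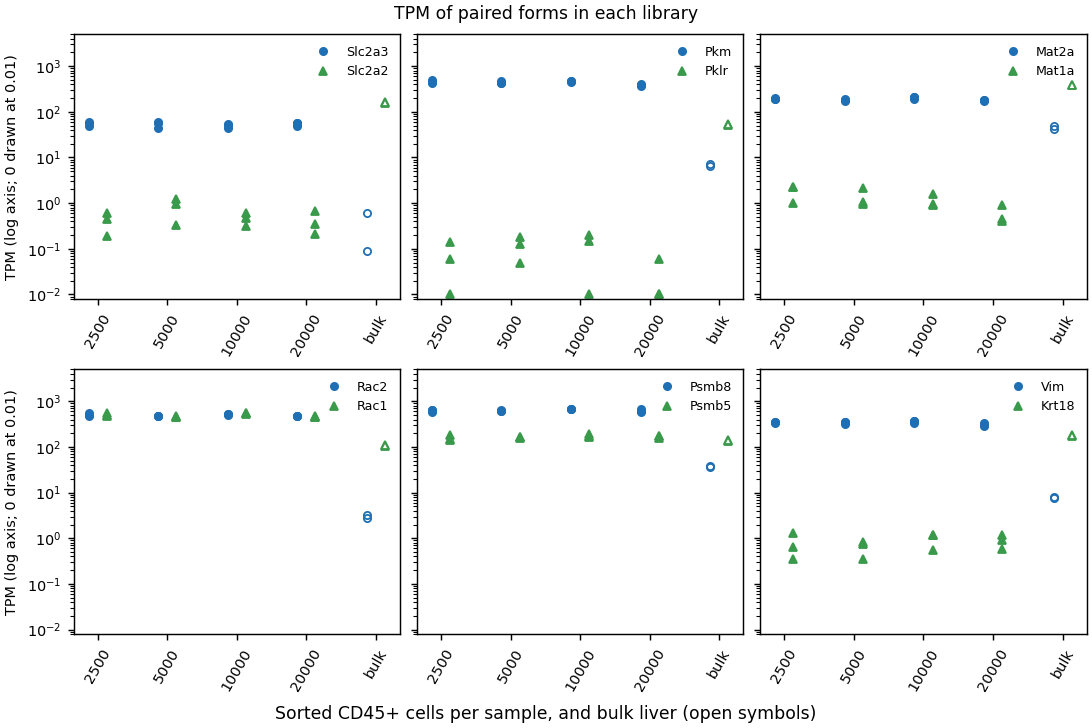
TPM of 6 pairs of forms (y axis, log scale, values of 0 drawn at 0.01) in each library by number of sorted CD45+ cells and in bulk liver (x axis; filled symbols sorted, open symbols bulk). Circles lie above triangles in sorted cells and below them in bulk liver, except that Rac2 and Rac1 were level in sorted cells at means of 493 and 497 TPM.

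Transcription factors and chromatin genes were the next classes to stand apart. Of 27 genes of the Ikaros, IRF, ETS and RUNX families, which direct blood-cell development and interferon responses, 22 were higher and 4 lower under TMM. Spib, a relative of PU.1 found in B and plasmacytoid cells, had 199, 219 and 266 CPM in sorted libraries, against 0.39 and 0.37 CPM in bulk liver (fold change 7.97 under TMM, SE 0.21). Ets2 and Gabpa passed in opposite directions, at -0.68 and -0.28 under TMM and 0.53 and 0.92 under library totals. Gabpa did not pass under TMM without either bulk library, at -0.22 in both cases, nor with upper-quartile factors, at -0.14, or no low-count filter, at -0.10. Of 27 histone and DNA methylation enzymes, 21 were higher and none lower under TMM, and all 27 were higher under library totals. Dnmt1, which copies DNA methylation at replication, had 98.7, 110 and 138 CPM in sorted libraries, against 8.68 and 7.09 CPM in bulk liver. It differed by 2.61 under TMM (SE 0.14), and its partner Uhrf1 by 3.93 (SE 0.46) at the lower level of 9.02 to 18.2 CPM, against 0.39 and 0.37 CPM. Of 24 SWI/SNF and cohesin genes, 18 were higher under TMM and 1 was lower, Smarca2 at -0.28, and all 24 were higher under library totals. Smarca2 did not pass under TMM without either bulk library, at -0.19 and -0.24, or without the first library of 20000 cells, at -0.22. Its call was also lost with limma-voom (-0.28), upper-quartile factors (-0.14) and no low-count filter (-0.10). The deacetylases and acetyltransferases were mixed, with 15 of 26 higher and 8 lower under TMM, against 41.8% and 38.5% of all genes tested. Hdac9 differed by 3.69 and Hdac7 by 2.48, while Hdac11 stood at -5.50 and the mitochondrial deacetylases Sirt3 and Sirt5 at -3.08 and -2.49.

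Parts of the basal machinery depended strongly on the yardstick, but not all of it. Of all genes tested 8.25% passed in opposite directions, beside 3 of 32 core spliceosome genes. Among gene families, 13 of 32 tested ubiquitin-conjugating enzymes did so. Of 36 translation initiation and elongation factors, 29 were lower under TMM and 31 higher under library totals, and 24 passed in opposite directions. The list took 0.734% to 0.772% of counts in sorted libraries, against 0.465% and 0.467% in bulk liver. Eef2, which moves the ribosome along mRNA, had 569, 658 and 695 CPM in sorted libraries, against 402 and 417 CPM in bulk liver, and its fold change was -0.54 under TMM (SE 0.06) and 0.66 under library totals (SE 0.06). Every sorted library lay above both bulk libraries in CPM, and the negative sign comes with the TMM factors. The chaperonin TRiC and prefoldin had 8 of 13 genes in this class, and the aminoacyl-tRNA synthetases 10 of 22. Vars, the valyl-tRNA synthetase, was higher under both scalings at 2.16 under TMM, and Aars and Tars, for alanine and threonine, were lower under both at -2.58 and -2.28. The most abundant genes of this class were B2m, the light chain of MHC class I, with 2992, 3213 and 4221 CPM in sorted libraries, against 2496 and 2450 CPM in bulk liver, and the nuclear RNA Malat1 with 1869, 2423 and 2902 CPM, against 1853 and 1816 CPM. Malat1 did not pass under library totals without the second bulk library, at 0.36.

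Machinery of the nucleus lay above the median of all genes and that of mitochondria and the secretory pathway below it. The core spliceosome had 18 of 32 genes higher and 5 lower under TMM and 30 higher under library totals. Sf3b1, a branch-site recognition factor, had 966, 1048 and 1150 CPM in sorted libraries, against 107 and 107 CPM in bulk liver (fold change 2.09 under TMM, SE 0.06). RNA polymerase II and Mediator had 22 of 38 higher and 13 lower under TMM, against 41.8% and 38.5% of all genes tested. Polr2a, the catalytic subunit, differed by 1.89 and Med12 by 2.28, while the small subunits Polr2i and Polr2k stood at -1.51 and -2.17. Of 40 mitochondrial ribosome genes 36 were lower under TMM and 22 under library totals, and of 26 genes of the citric acid cycle and pyruvate entry 24 and 16 were lower. The exceptions in the second list were Pdk3, a kinase that restrains pyruvate dehydrogenase, at 5.52 under TMM, and Pdp1, the opposing phosphatase, at 2.21. Pdk3 had 36.7, 41.5 and 45.3 CPM in sorted libraries, against 0.26 and 0.50 CPM. Of 36 genes of the endoplasmic reticulum translocon, folding and COPII coats, 32 were lower under TMM and 20 under library totals, while Sec11c and Sec24b were higher under both, by 1.22 and 1.68 under TMM.

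Amino acid breakdown, a main task of hepatocytes, was lower under both scalings in nearly all its genes. All 13 genes of tyrosine, phenylalanine and histidine breakdown were lower, with a median of -9.59 under TMM, and they took 0.0117% to 0.0141% of counts in sorted libraries, against 0.706% and 0.717% in bulk liver. Uroc1, which encodes urocanase of the histidine pathway, had 0, 0.06 and 0.90 CPM in sorted libraries, against 201 and 222 CPM in bulk liver (fold change -12.28 under TMM, SE 0.17). The smallest differences of that list were those of Gch1 and Qdpr, at -3.67 and -4.64, which make and recycle the cofactor tetrahydrobiopterin. All 11 tested genes of the tryptophan and kynurenine pathway were lower. Kmo, which hydroxylates kynurenine, was lower by the least: it had 177, 191 and 219 CPM in sorted libraries, against 324 and 333 CPM in bulk liver, and its fold change was -1.98 under TMM (SE 0.06) and -0.78 under library totals. Of 20 serine, glycine and methionine genes 18 were lower, and Mat2a and its partner Mat2b were higher under both scalings, by 0.64 and 0.78 under TMM.

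Of 25 one-carbon and nucleotide genes, 9 were higher and 10 lower under TMM, against 41.8% and 38.5% of all genes tested. Phgdh, the first enzyme of serine synthesis, had 36.8, 44.1 and 53.9 CPM in sorted libraries, against 0.13 and 0.25 CPM in bulk liver (fold change 6.61 under TMM, SE 0.32). Psat1, the next enzyme, differed by 3.07, and the mitochondrial folate enzymes Mthfd1l and Mthfd2 by 3.74 and 1.41. The cytosolic folate enzymes Mthfd1 and Shmt1 were lower under both scalings, at -3.40 and -5.87 under TMM. Psat1 and Mthfd2 were picked after their values were seen. Among 19 purine genes, Samhd1, which hydrolyses deoxynucleotides, was higher by 3.88 under TMM with 607 to 708 CPM in sorted libraries, against 18.5 and 20.04 CPM in bulk liver. Uox and Urad, which degrade uric acid in mice, were lower at -10.28 and -10.59.

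Organelle, barrier and hormone genes completed the lower classes. The peroxisome list had 26 of 27 genes lower under TMM and 22 under library totals. Its oxidation enzymes Acox2 and Acaa1b stood at -10.38 and -9.97 under TMM. Of 31 antioxidant and selenoprotein genes 29 were lower under TMM. Hmox1, heme oxygenase, passed under library totals only, at 1.03, and did not without the first bulk library, at 0.89. Of 24 tested junction genes 23 were lower under TMM and 20 under library totals. Cldn14, a tight junction claudin, had no count in any sorted library, against 17.1 and 14.7 CPM in bulk liver, which makes it at least 603-fold lower under library totals, with the floor for the sorted libraries set at 3 counts in all. Epcam, an epithelial adhesion gene, passed under library totals only, at 1.24. Of 27 tested growth factor and receptor genes 20 were lower under TMM and 3 higher. Gcgr, the glucagon receptor, had 0, 0.26 and 0.77 CPM in sorted libraries, against 271 and 274 CPM in bulk liver. Pdgfb, a growth factor also made by blood cells, was higher by 2.76 under TMM. Of 11 tested genes of the IGF and growth hormone axis 10 were lower under TMM, and Igf2r, which also carries enzymes to lysosomes, passed under library totals only at 1.13.

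The circadian clock genes had 16 of 19 lower and 2 higher under TMM, and 9 lower and 6 higher under library totals. Nr1d1, a clock repressor, stood at -4.97 under TMM with 5.43, 8.25 and 10.1 CPM in sorted libraries, against 110 and 107 CPM in bulk liver. Per1 and Bhlhe41 were higher under both scalings, by 2.58 and 2.23 under TMM. The time of day of tissue collection is not given in the labels, and its part was not tested.

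Cell survival, lipid mediator and channel genes held members of both directions. Among 18 BCL2 family genes 9 were higher and 6 lower under TMM, against 41.8% and 38.5% of all genes tested. The survival genes Bcl2 and Mcl1 differed by 5.84 and 2.36, while Bcl2l1, which encodes BCL-XL, passed in opposite directions, at -0.89 and 0.31, and Bok stood at -5.10. Of 21 caspase and death receptor genes 9 were higher and 9 lower under TMM, near the 41.8% and 38.5% of all genes tested. Fasl, the death ligand of cytotoxic cells, differed by 8.32 with 44.1 to 67.9 CPM in sorted libraries, against 0.13 and 0 CPM. Its receptor Fas was lower under TMM only, at -1.26. Without the second bulk library Bcl2l1 did not pass under library totals, at 0.28. Alox5, which begins leukotriene synthesis, had 31.9, 38.2 and 53.4 CPM in sorted libraries, against 0 and 0.12 CPM (fold change 7.93 under TMM, SE 0.42). Alox15, a related lipoxygenase, passed under neither scaling, and its sorted libraries ran from 0 to 87.4 CPM. Among sphingolipid genes the ceramide synthases Cers5 and Cers6 were higher, by 3.42 and 3.04 under TMM, and Cers2, the main liver form, was lower at -1.84. Of 26 ion channel and calcium entry genes 17 were higher under TMM, led by the proton channel Hvcn1 at 7.31 and the potassium channel Kcna3 at 7.06.

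In whole gene families the members were taken by symbol and not picked, but the families were chosen with earlier results of these data known. Families in which many members failed the low-count filter lose those absent from both groups. Some families were mixed: of 49 tested Rab GTPases 17 were higher and 22 lower under TMM. Of 52 tested Arhgap and Arhgef genes, 27 were higher and 20 lower, against 41.8% and 38.5% of all genes tested. All 8 Gimap genes, small GTPases of lymphocytes, were higher under both scalings, from Gimap9 at 2.11 to Gimap7 at 8.48 under TMM. All 14 tested carboxylesterases and all 4 tested alcohol dehydrogenases were lower under both. Of 16 tested aldehyde dehydrogenases 13 were lower under both, and Aldh18a1, which makes a precursor of proline, and Aldh3b1 were higher, by 2.90 and 3.52 under TMM. Of 31 tested short-chain dehydrogenases 29 were lower under TMM, and Rdh12, a retinal reductase, had no bulk count and was at least 185-fold higher under library totals. Of 263 tested solute carriers 81 were higher and 142 lower under TMM. Slc38a3, a glutamine carrier of hepatocytes, stood at -11.30 under TMM, and Slc2a6, a relative of the glucose transporters, at 7.87. Of 330 tested Zfp zinc finger genes 187 were higher and 61 lower under TMM, and of 52 DEAD/H-box helicases 37 were higher and 7 lower. Among 21 tested nuclear receptors 14 were lower and 6 higher under TMM, with Nr1i2, a drug sensor, at -11.09 and Nr4a1, an immediate early gene, at 6.97 under TMM.

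Gene types other than protein-coding genes took different shares of counts. Protein-coding genes held 94.3 ± 0.393% of counts in sorted libraries (SD, n = 12), against 92.6% and 92.5% in bulk liver. Entries annotated as ribosomal RNA held 0.105% to 0.285% in sorted libraries, against 1.36% and 1.41%, and those annotated as microRNA held 0.0964% to 0.397%, against 1.18% and 1.26%. One of the microRNA entries was Mir6236, at 362 ± 199 CPM in the sorted libraries (SD, n = 12), against 2608 ± 13.2 CPM in the bulk pair (SD, n = 2). Mitochondrial ribosomal RNA held 0.577% to 1.18% in sorted libraries, against 1.72% and 1.63%. Beside it, Lars2, the mitochondrial leucyl-tRNA synthetase, had 1359, 1779 and 4940 CPM in sorted libraries, against 11782 and 12052 CPM in bulk liver. Its fold change was -3.71 under TMM (SE 0.06, which leaves out the spread between cell numbers). How these structural RNAs were treated in library making was not tested. Constant segments of immunoglobulin genes held 0.879 ± 0.0496% of sorted counts, against 0.00199% and 0.00244% of bulk counts, and T cell receptor constant segments 0.0797 ± 0.00546%, against 0.000118% and 0.0000871%. Of 427 tested lincRNAs 189 were higher and 95 lower under TMM, where 41.8% and 38.5% of all genes tested were. Among named noncoding RNAs, Lncpint and Ftx were higher, by 2.06 and 2.07 under TMM, and Mir22hg, the host of a microRNA, was lower at -3.19.

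Each cell number was also set against bulk liver. The 4 comparisons share the bulk libraries, and the genes below were chosen on the mean of the same sorted groups, so their shares are a description. Of the 6806 genes higher under TMM, 6101 (89.6%) passed as higher at each of the 4 cell numbers, and of the 6273 lower genes 5679 (90.5%) passed as lower. At the single cell numbers, from low to high, 40.5%, 40.6%, 40.7% and 41% of all genes tested passed as higher, and 37.4%, 37.4%, 37.6% and 36.8% as lower. List medians under TMM varied by different amounts with cell number: at 2500, 5000, 10000 and 20000 cells, NF-kappaB genes had 2.39, 2.36, 2.39 and 2.43, tetraspanins -1.67, -1.05, -1.38 and -0.87, and the IGF binding and growth hormone axis -6.75, -6.55, -7.34 and -7.98. The choice of these lists followed sight of their medians. For Acaa1b, a strongly lower gene, the fold change under TMM was -9.63, -9.82, -10.15 and -10.29 at 2500, 5000, 10000 and 20000 cells. Not every such gene fell steadily: Acox2 had -11.12, -9.50, -10.02 and -10.89, and Adh1 had -9.78, -9.71, -9.55 and -9.68. Aldh8a1 did, at -9.44, -10.13, -10.29 and -10.34. Between the cell numbers 3 genes passed in opposite directions under TMM, and none did under library totals. The clearest was Jchain, the joining chain of antibodies, with at most 0.65 CPM at 2500 cells and between 47.1 and 113.7 CPM in the other sorted libraries, against 1.97 and 1.12 CPM in bulk liver.

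Promoter sequence is a property that the fold changes did not use. RefSeq promoters, from 250 bases before to 50 after the start, were matched for 10466 of 13279 protein-coding genes tested, and the first listed promoter was taken. At least 10-fold higher under TMM were 13% of all genes tested, and at least 10-fold lower under library totals 9.88%. Genes at least 10-fold higher under both scalings (1090 with a promoter) had a median of 8 CpG dinucleotides per promoter, those at least 10-fold lower under both (1016) had 8.5, those that passed in opposite directions (1069) had 22, and all tested genes had 20. Strongly different genes of either sign thus had CpG-poor promoters in these data, while the class that passed in opposite directions lay near all genes. The letters GAGGAAGT on either strand, a site of the kind bound by PU.1 of the ETS family, were in 7.98% of promoters of the strongly higher genes and 1.87% of those of the strongly lower genes, against 3.33% of all. The letters TGTGGT on either strand, the RUNX core, were in 20.6% and 11.9%, against 12.9%. The letters GTTAAT on either strand, part of the site of the liver factor HNF1, were in 4.59% and 10.0%, against 4.55%. The letters CGGAAGT on either strand, a CpG-containing ETS core, were in 4.13% and 2.07%, against 19.6% of the scaling-dependent class and 12.95% of all. These letters share GGAAGT with the PU.1-type site and cannot be the same site, since the base before differs. A match is a description of letters and does not show binding.

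**Figure D5:**
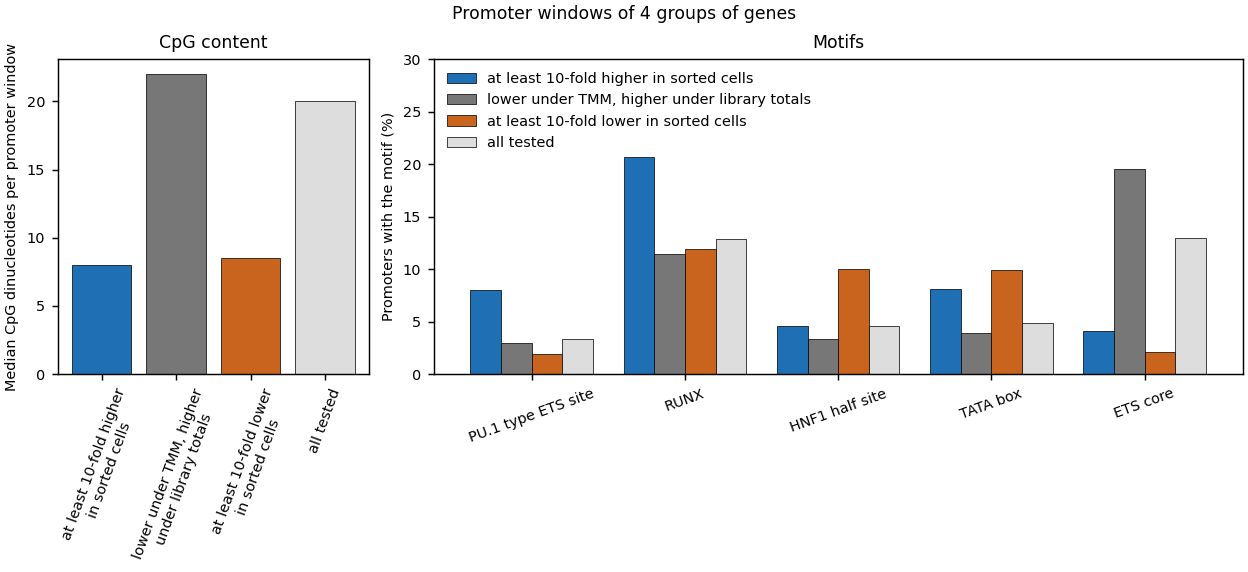
Left, median number of CpG dinucleotides per promoter window of 300 bases; right, percent of promoters that hold each motif, for genes at least 10-fold higher in sorted cells, genes lower under TMM and higher under library totals, genes at least 10-fold lower in sorted cells, and all tested. The first and the third group have 8 and 8.5 CpG, against 22 in the scaling-dependent group and 20 in all tested, and in the scaling-dependent group the ETS core reaches 19.6%.

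The 250 bases before the start of 5 genes show these letters in place, with 2 examples of strongly higher genes, 2 of strongly lower genes and 1 of the scaling-dependent class. The genes were chosen after their values were seen, sequences are from RefSeq on GRCm38.p6, each is written along its gene's strand, and the capitals mark the motif. Vav1 (chr17:57278850-57279099, plus strand), an exchange factor that acts after antigen receptor signals, and Inpp5d (chr1:87620062-87620311, plus strand) hold the PU.1-type site. Alb (chr5:90460620-90460869, plus strand) and Igfbp1 (chr11:7197537-7197786, plus strand), which encodes an IGF-binding protein of the liver, hold the letters GTTAAT, part of an HNF1 site, which in Igfbp1 lie on the other strand and read ATTAAC. Cct8 (chr16:87495870-87496119, minus strand), a TRiC subunit, holds the ETS core. Its window also holds the letters of the HNF1 site on the other strand (ATTAAC), which are left in lower case.
Vav1: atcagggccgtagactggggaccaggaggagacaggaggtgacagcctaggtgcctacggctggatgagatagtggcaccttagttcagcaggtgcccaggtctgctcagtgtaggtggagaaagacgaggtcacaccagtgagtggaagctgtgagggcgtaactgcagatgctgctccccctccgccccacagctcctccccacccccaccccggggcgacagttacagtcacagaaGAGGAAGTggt
Inpp5d: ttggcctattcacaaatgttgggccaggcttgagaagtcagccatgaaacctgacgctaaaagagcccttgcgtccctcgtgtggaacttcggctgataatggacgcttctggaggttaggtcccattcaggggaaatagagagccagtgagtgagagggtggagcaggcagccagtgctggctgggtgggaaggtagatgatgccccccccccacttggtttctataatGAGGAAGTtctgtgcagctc
Alb: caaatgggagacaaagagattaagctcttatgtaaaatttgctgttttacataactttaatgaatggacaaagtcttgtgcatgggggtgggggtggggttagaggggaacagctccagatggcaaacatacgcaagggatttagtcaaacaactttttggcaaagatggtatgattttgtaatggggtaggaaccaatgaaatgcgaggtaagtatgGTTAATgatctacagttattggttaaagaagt
Igfbp1: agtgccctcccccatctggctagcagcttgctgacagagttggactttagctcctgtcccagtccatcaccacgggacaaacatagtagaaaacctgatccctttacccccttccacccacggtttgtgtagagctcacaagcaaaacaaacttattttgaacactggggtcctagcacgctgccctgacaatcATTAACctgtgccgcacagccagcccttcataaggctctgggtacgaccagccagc
Cct8: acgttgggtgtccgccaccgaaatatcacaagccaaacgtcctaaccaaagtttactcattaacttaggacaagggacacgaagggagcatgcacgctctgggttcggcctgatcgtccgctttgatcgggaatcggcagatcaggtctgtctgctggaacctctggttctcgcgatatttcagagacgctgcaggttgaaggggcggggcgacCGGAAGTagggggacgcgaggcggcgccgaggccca
The motif begins 11 bases before the start in Vav1, 20 in Inpp5d, 32 in Alb, 56 in Igfbp1 and 36 in Cct8. Vav1 was higher by 5.28 and Inpp5d by 5.23 under TMM, each with all sorted libraries above both bulk libraries. Igfbp1 had at most 0.30 CPM in sorted libraries, against 46.4 and 41.7 CPM in bulk liver, with a fold change of -10.98 under TMM (SE 0.32). The level of Cct8 averaged 263 CPM in the 12 sorted libraries, all above the bulk pair, which averaged 195 CPM, and its fold change was -0.77 under TMM and 0.44 under library totals.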

How the data were processed

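Total RNA was measured by SMART-seq v4 libraries in 12 samples of sorted cells and 2 of bulk liver. Per the labels, RNA was extracted with a phenol and column method. The authors' deposited table of counts holds raw counts per gene, with totals of 6723357 to 14496314 per library, and their deposited TPM table holds values that sum to the same total in each library. Per the submitters' processing notes, the tools were FastQC 0.11.5, featureCounts 1.5.1, STAR 2.5.2b, DESeq2 1.34.0 and RSEM 1.3.0 with the build GRCm38, and no role or order is attached to them. Strandedness of counting was not stated in what was used here. Values of genes that overlap another gene or lie antisense to one are therefore uncertain, and so are those of closely similar copies (tubulins, Eef1a1, Actg1, Mup and histone genes). The tables disagree for some genes: 2742 have a count but TPM 0 in all libraries.

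Counts were tested with edgeR 4.0.16 (R 4.3.3, quasi-likelihood, robust, low-count filter by group). The contrast was the mean of the 4 sorted groups minus bulk liver, at an adjusted p of 0.05, with TMM factors and again with library totals. The test was also run on simulated counts in which few genes differed, as many higher as lower. Most genes tested differed here, so that run does not show how the test behaves on these data. DESeq2 1.42.0, limma 3.58.1 and other filters and factors were alternatives. Shares of TPM were tested by an exact permutation test. Symbols and coordinates came from GENCODE M21, matched for 48434 of 48794 genes, and promoters from RefSeq. The members and lists were chosen with earlier results of these data known. Genes named are Ptprc, Alb, members of the isozyme sets, the 2 highest and 2 lowest members of each list or family with at least 10 CPM in a group, and the 10 with the largest gain or loss in CPM. Actr3, Arpc2, Arpc4, Arpc5, Bcl2, Mcl1, Bhlhe41, Per1, Cct8, Vav1, Cers6, Epcam, Gabpa, Mthfd2, Psat1, Polr2k, Sirt5, Stat5b and Mir6236 were chosen after their values were seen. Some items are not reported here.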

Additional observations from a re-analysis of the deposited data

Results flagged for a closer look

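For 3 genes the fold change against bulk liver passed in opposite directions at different cell numbers under TMM, and an F test over the 4 cell numbers in the edgeR fit found that it differed (Benjamini-Hochberg adjustment over all genes tested). The genes were picked by their opposite calls in that same fit, so the F test is a description and not independent evidence. Jchain, which encodes the joining chain of polymeric antibodies, had an adjusted p of 1.26e-05. Its levels were 0.65, 0.40 and 0 CPM at 2500 cells, 113.7, 76.4 and 54.8 CPM at 5000, 81.1, 70.1 and 47.1 CPM at 10000, and 58.3, 56.2 and 58.5 CPM at 20000, against 1.97 and 1.12 CPM in bulk liver. All 3 libraries from 2500 cells thus lay below bulk liver and the other 9 far above it, with fold changes of -3.25, 4.52, 4.20 and 4.03 from low to high cell number. Whether the cells behind the libraries of 2500 came from the same mice as the others is not stated, and its part was not tested. Tada2b, a subunit of a histone acetylation complex, had an adjusted p of 0.00332 and fold changes of -0.93, -0.27, 0.55 and 0.48. Bahd1, a heterochromatin protein, had an adjusted p of 0.00626 and fold changes of -0.22, -0.49, -0.44 and 0.51, with its highest levels in the 3 libraries from 20000 cells (21.4, 29.9 and 30.0 CPM). For Tada2b and Bahd1 every sorted library lay above both bulk libraries in CPM, and the negative signs come with the TMM factors. Tada2b had 8.485 to 28.05 CPM in sorted libraries, against 8.415 and 6.348 CPM, and Bahd1 had 12.81 to 30.01 CPM, against 9.073 and 7.593 CPM.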

How the results depend on the processing

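Of 306 fold changes of named genes (153 genes, both scalings), 287 kept their direction and call under every alternative compared gene by gene. Another 15 lost a call under at least 1 alternative, 4 gained one and 0 reversed. Limma on log2(TPM + 1) was left out of this gene-by-gene comparison. The class of genes that passed in opposite directions was 2.83% of the 29250 genes tested with no low-count filter, against 8.25% in the reported fit, and 4.48% to 8.56% of those tested when each library was left out in turn, lowest without either bulk library. With limma on log2(TPM + 1), 11566 genes were higher and 2703 lower of 17216, and 81.1% of calls were higher. The share was 49.4% with DESeq2 size factors in edgeR (median of all genes 0.05) and 55.4% with upper-quartile factors (median 0.31). Between 0 and 32 isozyme sets passed when each library was left out: 0 without either bulk library, where the smallest p is 0.154, and all 32 kept their direction. With the replicate number as a replicate block, 6720 genes were higher and 6231 lower under TMM. Under that block the calls of Arpc3 and Smarca2 under TMM (0.36 and -0.25) and of Dock1 under library totals (0.48) were lost. Deviations of libraries with the same number correlated at -0.09 to 0.11, with 1 of 26 pairs over 0.1, so the numbers were not taken to pair samples. With 2 bulk libraries, bulk levels near 0 rest on few counts, which limits the fold changes of genes nearly absent from bulk liver.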
